A study of Drosophila melanogaster with 4 samples.

Results

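Of the 2949 peaks that the authors called for Abd-B-GFP, 694 lay on chromosome arm 3R, and the 622 of these outside the Antennapedia and bithorax complexes are described here. They were chosen by position alone. Chromatin immunoprecipitation sequencing was done on Drosophila melanogaster at the third larval instar (L3), collected as wandering larvae. All libraries came from the strain Abd-B-GFP, genotype w; PBac{y[+]-attP-3B}VK00037, whose transgene holds Abd-B genomic DNA with GFP put in for the stop codon. There were 2 ChIP libraries, made with a crude rabbit polyclonal serum against GFP, and 2 libraries of input DNA. The labels give the sex as unknown and name no tissue, and the collection protocol names another fly stock (y; bw cn sp). The titles of all libraries carry the term vMock. For the 4 libraries there is 1 peak list with 1 score per peak, and how each library entered it is not stated. No value therefore has a replicate error, no difference below could be tested over samples, and depth is unknown. Binding in few cells and weak binding in many cannot be told apart.

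Abdominal-B is the most posterior Hox protein of the fly. Its homeodomain binds AT-rich DNA, and it gives posterior abdominal segments, the genitalia and the posterior spiracles their identity. It does so through other regulators. In the embryonic spiracle these include ems and grn, with crb, cv-c and cadherin genes acting in the cells that change shape, and in the adult abdomen Abd-B acts together with the sex-determination gene dsx.

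The 622 peaks had a median score of 13.1, with quartiles at 10.2 and 18.8 and a range from 6.2 to 177. Their median width was 340 bp, with quartiles at 257 and 483 bp. Together they covered 0.924% of 27.1 Mb, at 22.96 peaks per Mb. The 72 peaks inside the Hox windows had a median score of 14.9 and a median width of 427.5 bp, at 100 peaks per Mb. On the other large arms the median score was between 13.0 on 3L and 14.2 on X. The member nearest to each of the 4 window edges lay 28.2 to 180 kb outside it, and the nearest left-out peak 1.81 to 108 kb inside. At the right edge of the bithorax window, the last peak inside scored 15.2 and the next outside scored 69.0. At the right edge of the Antennapedia window they scored 74.6 inside and 23.7 outside. At the left edges the inside peaks scored 10.6 and 15.6 and the outside ones 21.3 and 10.5.

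The highest score, 177, belonged to a peak from 16603790 to 16604703 inside Syp, which encodes an RNA-binding protein known from the timing of neural stem cell identity. A peak from 8889662 to 8890341 inside sim, the bHLH-PAS regulator of the nervous system midline, followed with 166. These were the only members above 100 and are the only ones among the 10 highest scores of the whole list. A second peak in sim, from 8882934 to 8883479, scored 32.4.

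The other 8 of the 10 highest scores were between 60.9 and 91.0. A peak of score 91.0 lay from 10957209 to 10957820 at CG42788. The GATA factor gene grn had one of 89.2 from 4007025 to 4007790, 242 bp from an end of the gene record. The Hedgehog ligand gene hh had one of 69.0 from 18967549 to 18968027, 160 bp from an end of its record. By these distances both sat at the border of the gene record rather than deep inside it. The distances rest on the stated difference between genome releases, and the check of it given below fell short around hh.

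Dad, which encodes an inhibitory Smad of the Dpp pathway, had a peak of 69.0 from 12881934 to 12882577, the member closest to the bithorax window on its right. A further peak in Syp from 16609396 to 16610950 scored 67.6. In dsx the highest peak, from 3788285 to 3788919, scored 64.4. Osi2, a member of the Osiris family of insect membrane proteins, had one of 63.5 from 2035860 to 2036437. The ETS factor gene pnt, a nuclear effector of EGF receptor signalling, had one of 60.9 from 19118691 to 19119175. Of the members among the 737 highest-scoring peaks of the whole list, 86.0% overlapped a gene record, as did 81.5% of all 622. The highest member outside records scored 46.9.

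The widest member, 1751 bp from 15693148 to 15694898, lay in Mrp5 and scored 33.3. Next came 1596 bp from 5341145 to 5342740 across mRpL47, CG8176 and the histone demethylase gene Kdm3, with a score of 29.6. The other widest peaks were both in Syp, at 1555 and 1259 bp, and one of 1176 bp from 21831465 to 21832640 overlapped an end of E(spl)mbeta-HLH, a Notch target gene, and lncRNA:CR45039, with a score of 30.2. Higher scores went with greater widths, with Spearman's rho of 0.55 across the 622 peaks, whose score and width come from the same peak calls.

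The megabase at the start of the arm sequence held more members than any other full window of its size. The first Mb held 61 members, and the 24 full windows of 1 Mb after it, outside the Hox windows, held 10 to 36, with a median of 20. That is 61.0 against 21.5 peaks per Mb over the rest. The 10 windows of 100 kb in the first Mb held 2 to 20 peaks, with a median of 4, and none was empty. Of 258 such windows in the rest, 73 (28.3%) were empty and 33 (12.8%) held 5 or more, and the median was 1. The groups overlapped, since windows of the rest reached 16 peaks.

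**Figure D1:**
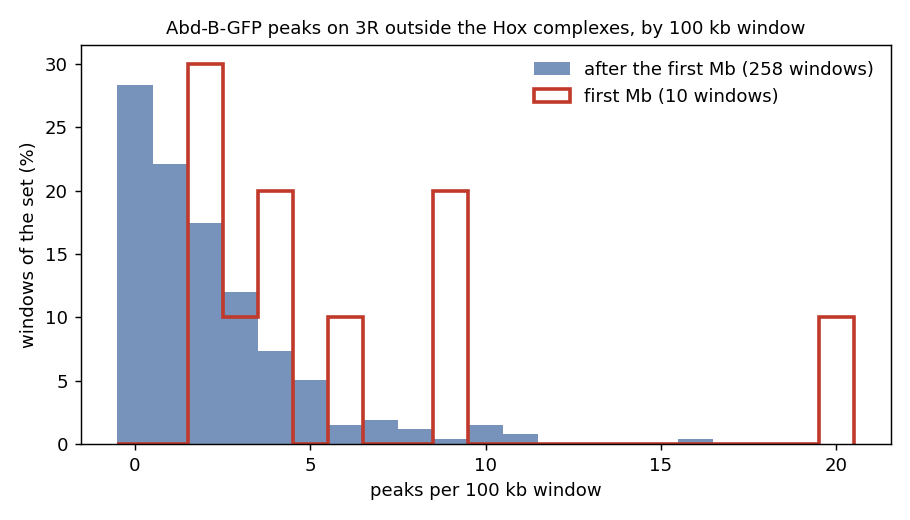
Share of 100 kb windows (percent of the windows of each set) by the number of Abd-B-GFP peaks they hold, for the 10 windows of the first Mb of 3R (red outline) and 258 windows after it (blue), Hox windows left out. Windows of the first Mb hold 2 to 20 peaks, and 28.3% of the later windows hold none.

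The peaks of the first Mb were not spread evenly. Its last 0.2 Mb, from 0.8 to 1 Mb, held 29 of the 61 peaks, or 145 per Mb, and the 0.8 Mb before it held 32, or 40 per Mb. This division was made after the positions were seen. From 0.8 to 0.9 Mb there were 20 peaks, of which 16 overlapped no gene record. In this window gene records cover 35.9% of the bases, against 73.0% over all of the arm described here. The 20 scores were low to moderate, with a median of 11.6 and a maximum of 18.4. The stretch runs from plh to corto, with few records other than those of long noncoding RNAs.

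Peaks of the first Mb were dense without being strong. Their median score was 12.5 (quartiles 10.4 and 15.5) against 13.2 (10.2 and 19.1) in the rest, and their median width was 366 against 335 bp. The width difference of 31.0 bp turned to -73.0 and -54.5 bp with the 1474 and the 737 highest-scoring peaks of the list, and the score difference turned to 1.18 with the 737. Among the 737 highest-scoring peaks of the whole list were 6 of the 61 (9.84%) and 101 of the 561 others (18.0%). Of the 25 highest-scoring members, 1 lay in the first Mb.

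**Figure D2:**
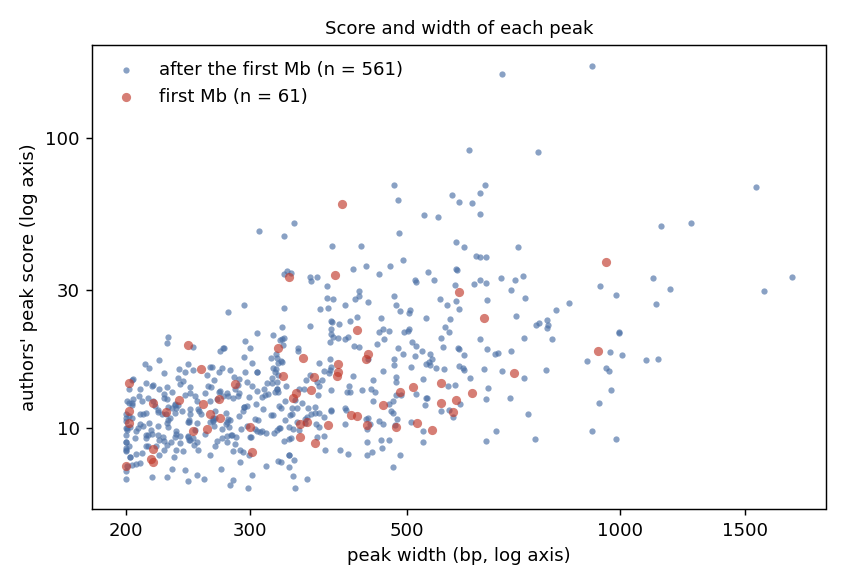
Score against width (bp) of each of the 622 peaks on log axes, with the 61 peaks of the first Mb in red and the 561 after it in blue. The red points lie within the blue cloud, and their highest score is 59.0 against 177 in the rest.

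The highest peak of the first Mb, from 629023 to 629427 with a score of 59.0, lay in ctrip, which encodes a ubiquitin ligase. A peak of 37.4 lay from 296 to 1249, at the very start of the arm sequence, in CG12581. At corto, whose product binds Polycomb and Trithorax group proteins, a peak of 33.6 from 912735 to 913130 spanned an end of the record, and one of 29.3 from 913383 to 913974 lay outside it, with its midpoint 884 bp from the same end. CG14657 had a peak of 33.0 and CG31523 one of 23.9. Those of Cdep, smash, Ubc6 and lncRNA:CR46352 scored 21.8, 19.3, 18.8 and 18.4. Of 2 early patterning genes of the first Mb, opa had a peak of 13.3 at an end of its record, and hkb had one of 7.38 outside its record, 0.399 kb away.

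Of the members, 163 (26.2%) stood in 39 runs of 3 or more with gaps up to 5 kb, while 331 (53.2%) had no other member within 5 kb. On 2L, 2R, 3L and X the same measure gave 21.6, 26.2, 28.6 and 30%. In the first Mb 23 of 61 peaks (37.7%) were in runs. The gap between neighbouring members had a median of 14.4 kb, and the longest such gap, leaving aside those that span a Hox window, ran for 512 kb from 4159852 to 4671926 across 89 annotated genes. The median score was 13.1 in runs and 13.3 for single peaks, and the median width was 390 and 331 bp.

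Of the 39 runs, 11 held 5 to 8 peaks, over 5.98 to 18.3 kb, and 10 of the 11 overlapped a gene. Among all 39 runs only 3 overlapped none, and gene records cover 73.0% of the bases, so this overlap is not particular to the long runs. The longest lay at tara, from 12050323 to 12068590, with 8 peaks scoring 9.41, 26.5, 20.3, 27.0, 20.5, 13.6, 16.4 and 37.9 in order of position. It was followed in the same gene by a run of 4 from 12075438 to 12081092. tara encodes a regulator linked to trithorax group genes and to the cell cycle, and its record overlapped 11 peaks in 34.7 kb, all but the first peak of the longer run. Of these 11 peaks, 3 were among the 737 highest of the list.

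At Syp one peak dominated instead. The run from 16602888 to 16610950 had scores of 9.0, 177, 15.9, 19.8, 31.9 and 67.6, and 54.5% of its length was under peaks. A run of 3 in the same gene, from 16589149 to 16592724, scored 9.77, 50.8 and 11.2. With 2 more, the record of Syp overlapped 11 peaks in 54.0 kb, 4 of them among the 737 highest of the list.

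The run at dsx, from 3788285 to 3795258, had its highest peaks side by side at 64.4 and 53.3, followed by 10.7, 11.2 and 13.0. The last 2 of these lay outside the record. Further peaks in dsx, away from the run, scored 21.95, 16.25 and 8.72. The run at CG42788, from 10956590 to 10966882, scored 17.3, 91.0, 21.4, 27.7, 21.2, 10.6 and 25.6 and also overlapped CG6912, asRNA:CR45600, CG3984 and CG3987. Antisense and sense records overlap here, and a peak cannot be given to one of them.

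The first Mb held 2 of the long runs. One of 5 peaks from 906362 to 913974 scored 15.1, 13.2, 14.3, 33.6 and 29.3 and overlapped corto itself. The other, 7 peaks from 881646 to 892781, was the only long run over no gene record, and its scores stayed between 8.48 and 12.7. The closest record to any of its peaks was that of lncRNA:CR45588, 2444 bp away, and corto was 10820 bp from its last peak.

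The remaining long runs were at pyd, a tight-junction scaffold gene, from 4680630 to 4690927, where the run also overlaps tRNA:Arg-TCG-2-3 and tRNA:Arg-TCG-2-4, and at sals, CG17230 and PGRP-LB, an amidase of peptidoglycan, from 7275219 to 7281196. Others lay at lncRNA:CR44953 and kay, the fly Fos gene, from 25581285 to 25591876, at neo and the autophagy gene Atg16 from 25644318 to 25657968, and at heph, a polypyrimidine tract-binding protein gene, from 27754065 to 27764229. Their highest scores were 34.0, 32.9, 27.98, 14.9 and 23.1. At neo and Atg16 the median score was 9.1, the lowest of these 5 runs.

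**Figure D3:**
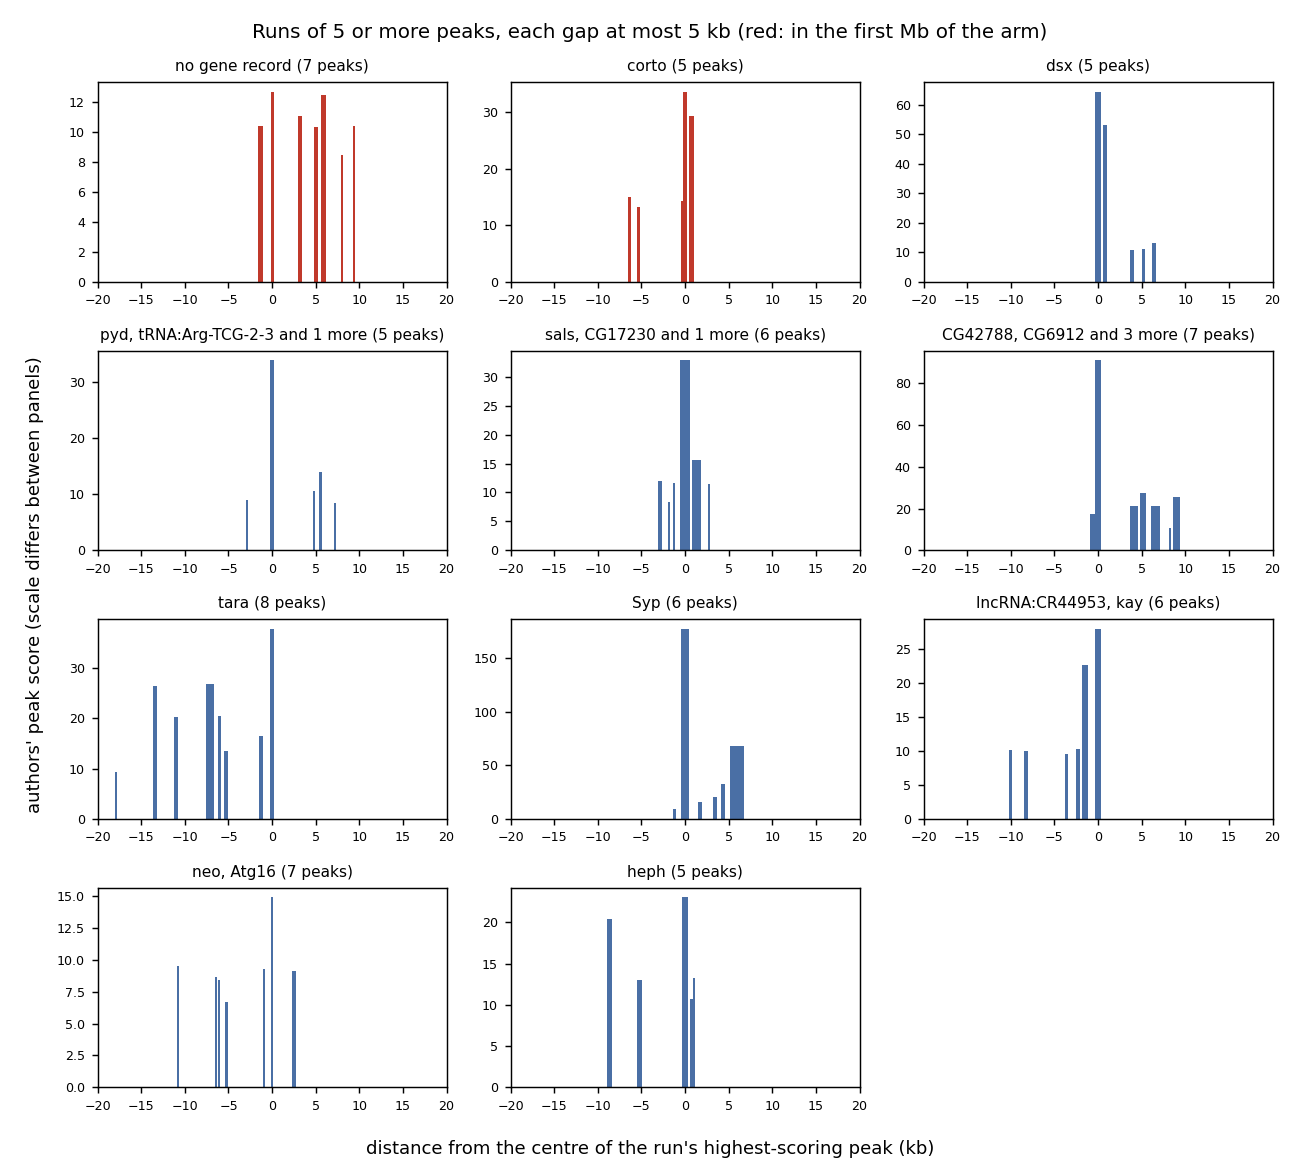
The 11 runs of 5 or more peaks, one panel each, with bars at each peak's distance (kb) from the centre of the highest-scoring peak of the run, bar width as peak width and bar height as score (each panel has its own scale; red marks the first Mb). Syp, dsx and CG42788 have a peak of 64.4 to 177, and the run with no gene record stays at or below 12.7.

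Members were read against genes by moving release 6 records by the stated difference between releases. At that difference 22.2% of the 622 midpoints lay within 250 bp of an end of a gene record, against 9.81 to 13.7% at 8 shifts of 5 to 50 kb. Such positions make up 12.0% of the bases. In 5 of 7 segments of 4 Mb the value at the stated difference was above that at each of the 8 shifts, and it was not from 0 to 4 Mb and from 16 to 20 Mb. In the first Mb alone it was 16.4%, and at 2 of the shifts as much. From 16 to 20 Mb it was 15.8%, against 6.32 to 17.9% at the shifts. Gene names from 0 to 4 Mb and from 16 to 20 Mb rest on the difference alone. Among these are dsx in the former stretch, and Syp, InR, hh and pnt in the latter.

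**Figure D4:**
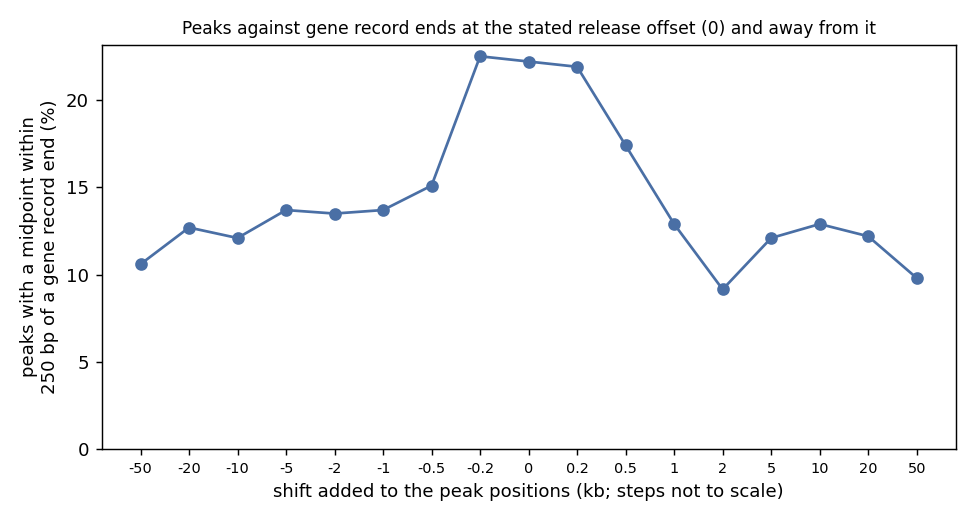
Percent of the 622 peaks whose midpoint lies within 250 bp of an end of a gene record (vertical axis) when the peaks are moved by up to 50 kb to either side (horizontal axis, shift in kb, steps not to scale). The value is 22.2% at no shift, 22.5 and 21.9% at shifts of 0.2 kb to either side, and 9.81 to 13.7% at 5 kb or more.

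Most members overlapped a gene, but so do most bases of the arm. Of the 622 peaks 507 (81.5%) overlapped a gene record, and 74.8% of midpoints lay inside one, against 73.0% of bases. At the 8 shifts of 5 to 50 kb, 74.9 to 79.4% of midpoints lay inside one, so no excess within records is read from these values. In the first Mb 50.8% of midpoints lay in a record, against 66.0% of bases. From 0.8 to 1 Mb the values were 20.7 and 36.4%, and in the 0.8 Mb before it 78.1 and 73.3%. The 214 peaks within 250 bp of a record end had a median score of 14.4, and the 323 deeper inside a record had 12.2. The upper quartile was 18.9 in both, and the highest scores were 91.0 and 177. Median widths were 357 and 335 bp, and a wider peak reaches an end more readily. Without strand, starts and 3′ ends of genes cannot be told apart here.

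Of 4121 genes, 386 had a member in their record (9.37%), and 259 had one within 250 bp of an end (6.28%). Of the 3342 protein-coding genes 352 had one in the record (10.5%). Long genes had one more often. The share was 1.96% up to 1 kb, 4.11% from 1 to 3 kb, 14.3% from 3 to 10 kb, 37.3% from 10 to 30 kb and 43.6% above 30 kb. Genes with a peak had a median length of 8.21 kb against 1.78 kb over all genes. Counts for gene lists are therefore given beside the number that these shares would give for genes of the same length classes.

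The records with most peaks were those of Glut4EF, a transcription factor gene of 121 kb, and CG46467, which overlaps it, with the same 14. None of the 14 was above 19.5. tara and Syp had 11 each, and heph had 10 in a record of 168.5 kb. The 10 genes with at least 2 of the 737 highest-scoring peaks of the list were Syp, tara, osa, fru, InR, dsx, hth, sim, CG7900 and CG34353. The last 3 had 2 peaks each.

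InR, the insulin receptor, had 6 peaks in order of position at 25.1, 15.6, 43.8, 15.2, 20.3 and 28.6. Akt, a kinase downstream of that receptor, had 1 of 54.6. osa, a subunit of the Brahma remodelling complex, had 6 peaks up to 49.8, the highest of which also overlapped lncRNA:CR46036. fru, a regulator of male courtship neurons, had 6 up to 47.6, and hth, a Hox cofactor, had 7 up to 35.3. The records of fru and hth are long, at 131 and 132 kb. Per 10 kb of record there were 0.457 peaks at fru and 0.53 at hth, against 1.22 at InR and 1.97 at osa. Over all records there were 23.5 midpoints per Mb.

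The list of posterior spiracle and Abd-B target genes had the highest share under peaks of the gene lists. All lists were chosen with earlier results of these data known, so the shares only describe them. Of the 10 spiracle and target genes on 3R, 8 had a member in their record. This compares with 9.37% of all genes and 3.42 genes at the shares of their length classes. Besides grn, hh, dsx and pnt, Dr, a homeobox gene, had a peak of 33.5, 41 bp from an end of its record. The RhoGAP gene cv-c had 4 peaks between 7.08 and 10.2, and the cadherin genes Cad86C and Cad88C had 1 each of 11.45. ems, a direct Abd-B target in the embryonic spiracle, and the apical polarity gene crb had no member in or within 10 kb of their records. Only 5 of the 8 thus had a peak above 30.

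Segmentation and homeodomain regulators were under peaks in 20 of 37 cases, against 10.6 at the shares of their length classes. This list shares dsx, grn, Dr and ems with the one above, and tara and osa with the next. Members of it not yet named include sr, with a peak of 39.1, svp with 31.7, pros with 29.9 and pnr with 29.6. Weaker were cnc (24.8), jumu (23.2), GATAe (20.3), tx (18.7), zfh1 (13.3), C15 (12.7) and srp (6.79). The forkhead gene fkh and the homeobox gene E5 had a member within 250 bp of an end, with scores of 18.0 and 13.6, but none over the record. No member lay in hb, tll, cas, rn, cwo, Hmx, btn, Ptx1, tin, bap, lbl, lbe or slou.

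Chromatin and insulator genes had a member in 7 of 18 cases, against 3.15 by length class. Besides tara, osa and corto, they were su(Hw), an insulator protein gene, with 35.0, trx with 27.2, the histone methyltransferase gene gpp with 4 peaks up to 21.1, and mod(mdg4) with 10.4. Their records held 145 midpoints per Mb, against 23.5 over all records, and 21 of the 28 overlaps were in tara, osa and corto.

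Signalling genes had a member in 11 of 22 cases, against 7.13 by length class. The Notch ligand gene Delta, listed as Dl, was not matched by symbol and is not among the 22. It had 1 peak of 8.28. Further examples are rdx, an adaptor in Hedgehog signalling, with 5 peaks up to 19.6, sqd with 16.3, puc with 13.7, and the kinase gene wts with 8.94. Ser, a Notch ligand, had 2 peaks up to 6.9. The listed genes without a member were neur, wntD, foxo, stumps, put, bnl, mats, tok, tld, Tl and pygo. Long records are among these, such as bnl at 42.7 kb and Tl at 43.4 kb. Hormone and nuclear receptor genes had 3 of 9, against 2.05, and these were InR, svp and Eip93F. Eip93F, an ecdysone-induced regulator of late metamorphosis, had 4 peaks up to 13.2. The signalling list shares hh, pnt and cv-c with the spiracle list, jumu with the segmentation list, and InR and foxo with the hormone list. The hormone list also shares svp and tll with the segmentation list, so the counts of these lists are not independent.

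The E(spl) complex is a cluster mostly of small Notch target genes, though its 13 listed genes include gro, of 8.18 kb. Of the 13, 3 had a member in the record, against 0.465 by length class. They were E(spl)mbeta-HLH at 30.2, E(spl)m2-BFM at 13.7 and E(spl)m3-HLH at 10.1. All 13 had a member within 10 kb, as had 34.9% of all genes, but neighbours in the cluster share peaks. The highest peak of the cluster, 42.1 from 21834056 to 21834773, lay between records.

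Lists of other kinds had at most 1 gene with a member. None of 23 cytoplasmic ribosomal protein genes had a member, against 0.854 by length class. It was 1 of 26 cuticle genes (Cpr97Ea at 9.18, against 1.12), 1 of 7 muscle genes (Tm1 at 13.3, against 1.09) and 1 of 9 heat shock genes (Hsc70-4, a constitutive chaperone, at 34.0, against 0.472).

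**Figure D5:**
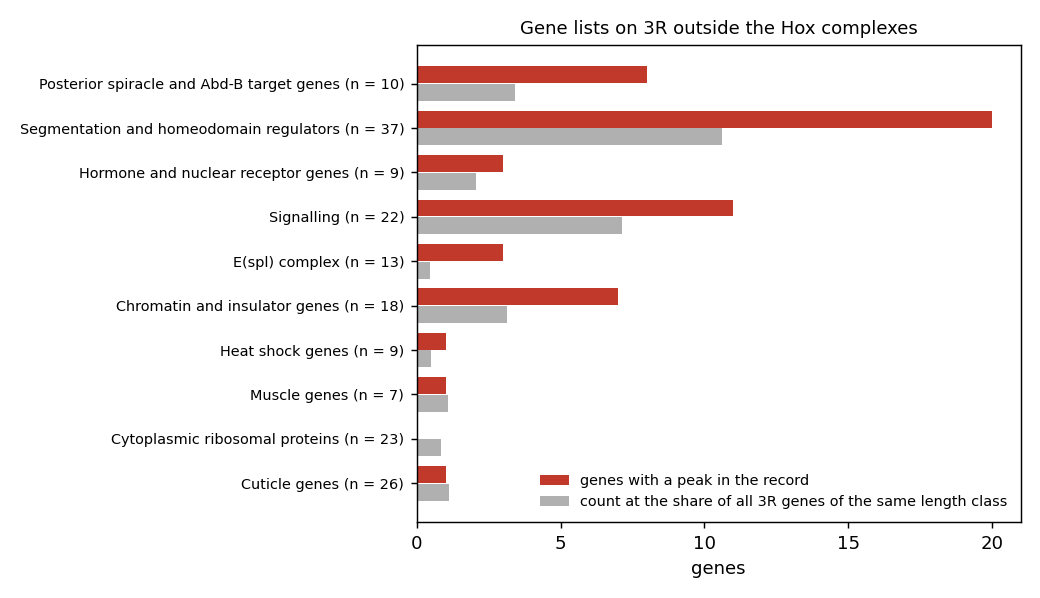
For each gene list, the number of genes on 3R outside the Hox windows with a peak in their record (red) and the number given by the share of all 3R genes of the same length class (grey). Red exceeds grey by most genes in the segmentation list (20 against 10.6) and the spiracle list (8 against 3.42).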

How the data were processed

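The deposited file is a single table of peaks, in GFF version 3 on FlyBase release 5 with MACS in its source field, per the file headers. Reads were handled with BWA, MACS2 and CASAVA (versions 1.7.0.2 and 1.7.0.3) on the build BDGP5, per the submitters' processing notes. The control given to the peak caller, its settings and the handling of replicates are not given in the sources used here. Each row holds the authors' peak position and the authors' score, whose scale is not named. The score was used only to describe and rank peaks within the list. The lowest deposited start is 0, so 1 was added to each start.

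Peaks were taken from 3R, leaving out midpoints from 2480000 to 2830000 and from 12480000 to 12850000, the windows of both Hox complexes. The extent of 3R was the end of its last peak, less these windows. A run was 3 or more peaks with each gap at most 5 kb. Genes came from the RefSeq table of release 6. Release 6 positions less 4174278 were taken as release 5 positions, which the share of peaks beside gene record ends was used to check. The table gives no strand, so measures planned on gene starts, and the rule for named genes, used the record and either end of a record, within 250 bp. Motif counts in promoters were planned and not run, since no sequence was used here. Depth and replicate error are unknown, and all results are descriptions. The members and gene lists were chosen with earlier results of these data known. Peaks named are the 10 highest scores, the 5 widest, the 10 highest in the first Mb and the runs of 5 or more. Genes named are those under such peaks, those of the lists with a peak, and those with at least 2 of the 737 highest-scoring peaks of the list. Others were chosen after their values were seen. Computation used scipy 1.17.1, pandas 2.3.3 and numpy 2.4.6 under Python 3.11.15, and the interval functions were tested on simulated data.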

Additional observations from a re-analysis of the deposited data

How the results depend on the processing

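No paired analysis was possible because libraries have no values of their own in the deposited table, and so no replicate could be left out. The excess of the first Mb in peaks per Mb was 39.5. It was 13.7 and 2.13 with the 1474 and the 737 highest-scoring peaks of the list, 23.5 for the first 0.5 Mb, 21.1 for the first 2 Mb, and 18.5 without 0.8 to 1 Mb. The difference in median score (-0.72) was -3.03 with the 1474 highest-scoring peaks and changed sign with the 737 (1.18). The difference in median width (31.0 bp) changed sign in both (-73.0 and -54.5 bp). These sets are cut on score and the cause was not tested. The share in runs (26.2%) was 13.2 and 5.61% with the 1474 and the 737 highest-scoring peaks, 31.4% with the Hox complexes kept, 13.7% with peaks under 1 kb apart merged, 12.5 and 38.6% with gaps up to 2 and 10 kb, and 46.8 and 10.8% for runs of at least 2 and 5. The longest run (8) was 3 with the 737 highest-scoring peaks, 55 with the Hox complexes kept, 5 with merged peaks and 16 with gaps up to 10 kb. The share over a gene record (81.5%) was 86.0% with the 737 highest-scoring peaks and 74.8% by midpoint. The share within 250 bp of a record end (34.4%) was 41.1 and 38.3% with the 1474 and the 737 highest-scoring peaks, 38.4% with merged peaks, 43.9% within 500 bp, 49.8% by midpoint within 1 kb, 30.6% with protein-coding genes, and 18.8 and 19.8% with positions moved by 5 kb to either side. Genes with a peak at an end (6.28%) were 3.15 and 1.29% with the 1474 and the 737 highest-scoring peaks, 8.47% within 500 bp, 10.2% by midpoint within 1 kb, and 3.64 and 3.91% with positions moved. Alternatives on gene record ends, and leaving out 0.8 to 1 Mb, were chosen after seeing the data. Alternatives on gene starts were not run, since strand is not in the table used here.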

Other observations

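Of the 622 members, 115 (18.5%) overlapped no gene record, with a median score of 12.6. The highest, 46.9 from 26912132 to 26912618, lay 3.25 kb from Sox100B, a Sox family transcription factor gene. A peak of 42.5 from 19427304 to 19427695 lay 322 bp from tRNA:Leu-CAA-2-3, and one of 42.3 from 9185766 to 9186196 lay 1557 bp from Elp6. These peaks were chosen after their values were seen.

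Counts for small noncoding genes are set beside those of all short records. Of 75 tRNA genes 1 had a member in the record and 3 had one within 250 bp of an end, of 54 miRNA genes 0 and 2, and of 48 snoRNA genes 1 and 1. Among all 1120 records up to 1 kb it was 22 (1.96%) and 31 (2.77%). The shares of tRNA, miRNA and snoRNA genes were 1.33, 0 and 2.08% in the record and 4.0, 3.7 and 2.08% at an end. With counts this small no order among these kinds is read from them.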
